A study of Rattus norvegicus with 82 samples.

Results

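The nuclear genes of the respiratory chain were followed across 7 regions of the rat brain. A gene counted as a member when its platform symbol began with Nduf, Uqcr, Atp5 or Cox followed by a digit and a letter, or was Sdha, Sdhb, Sdhc or Sdhd. The rule found 86 genes on 96 probe sets, of 14217 genes named on the arrays, and each gene was read from its probe set with the highest mean signal. Grouped by symbol prefix alone, they comprised 36 genes counted as complex I and 6 as its assembly factors (Ndufaf genes), 4 genes of complex II, 7 of complex III, 17 of complex IV and 16 of ATP synthase. Ndufa4 and Ndufa4l2 were thus counted with complex I and Cox7a2l with complex IV. A prefix does not settle in which complex a protein works. Cox6c-ps1, a pseudogene by its annotation, met the rule and was counted. A further 7 probe sets that carry several symbols, among them those of Ndufa10, Uqcrb and Cox7a2, were left out.

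Total RNA from rat brain had been hybridised to 1-colour Affymetrix arrays. Tissue came from animals labelled ADX, pADX or Sham, taken at PM or AM. ADX commonly abbreviates adrenalectomy, in which the adrenals are taken out, and Sham a control operation. The labels spell out neither, and the p in pADX and the rats' strain, sex and age go unexplained in them. The 80 arrays with a treatment made up 41 combinations of region with treatment and time, with 2 arrays in each except frontal cortex ADX AM and frontal cortex Sham AM, which had 1. Locus coeruleus, dorsal raphe, hypothalamus, amygdala and septum each had 4 ADX, 4 pADX and 4 Sham arrays. Frontal cortex had 3 ADX, 4 pADX and 3 Sham arrays, and hippocampus 4 ADX, 2 pADX and 4 Sham, with the PM label of its pADX arrays in doubt. Nothing in the labels says that arrays are from separate animals, so the p-values measure the spread between arrays, which may be technical.

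The respiratory chain sits in the inner membrane of mitochondria. Complex I takes electrons from NADH and complex II from succinate, complex III passes them to cytochrome c, and complex IV hands them to oxygen. Complexes I, III and IV pump protons as they do so, and ATP synthase uses the returning protons to make ATP. A few subunits are encoded by mitochondrial DNA, and the rest, with all of complex II, by nuclear genes. Neurons draw most of their ATP from this pathway, and firing and synaptic work set much of the demand. Nuclear respiratory factor 1 (NRF1) and the ETS family factor GABP (also called NRF2) are known regulators of many of these genes.

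Promoters were read to show the members' regulatory sequence, and 78 of the 86 genes matched an entry of the RefSeq promoter table for rat build GRCr8. Each entry holds the 250 bases before and 50 bases after the start that it uses for the gene. The NRF1 motif, searched on both strands as GCGC, any base, then TGCGC, was in 15 of the 78 windows (19.2%) and in 5.95% of the 19005 windows of protein-coding genes of the same length. The ETS motif CCGGAAG was in 22 of the 78 (28.2%), against 11.1% of all. The motifs stood together in the window of 1 member, Atp5me, without overlap. Median GC content was 56% in the members' windows and 55.3% in all windows. A match describes letters and is not evidence of binding. The 5 windows below belong to genes on which the results turn: Sdha (chr1:30764303-30764602, plus strand) holds 3 NRF1 matches, Uqcrc1 (chr8:118467973-118468272, plus strand) 1 NRF1 match and Cox4i1 (chr19:65630133-65630432, plus strand) 2 ETS matches. Those of the muscle type subunits Cox6a2 (chr1:192219667-192219966, minus strand) and Cox7a1 (chr1:94568966-94569265, plus strand) hold neither motif. Each is written 5′ to 3′ along its gene, with motif matches on either strand in capitals and the start used by the entry after the first 250 bases. The Cox6a2 and Cox7a1 windows lie inside the annotated spans of their genes (chr1:192218970-192221188 and chr1:94549663-94572330). They therefore do not cover the outermost gene start, whose flanking sequence was not read.
Sdha: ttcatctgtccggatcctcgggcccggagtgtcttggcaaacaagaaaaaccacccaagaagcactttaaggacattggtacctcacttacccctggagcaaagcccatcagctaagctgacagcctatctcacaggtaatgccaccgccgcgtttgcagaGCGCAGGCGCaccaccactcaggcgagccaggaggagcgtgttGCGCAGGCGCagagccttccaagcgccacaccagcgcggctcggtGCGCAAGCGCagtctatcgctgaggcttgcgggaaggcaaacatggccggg
Uqcrc1: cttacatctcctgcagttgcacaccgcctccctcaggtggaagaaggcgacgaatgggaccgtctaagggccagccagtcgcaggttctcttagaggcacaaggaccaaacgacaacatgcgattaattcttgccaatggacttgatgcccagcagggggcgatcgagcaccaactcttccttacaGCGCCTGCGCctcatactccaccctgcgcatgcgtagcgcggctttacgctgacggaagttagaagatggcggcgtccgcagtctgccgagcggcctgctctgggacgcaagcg
Cox4i1: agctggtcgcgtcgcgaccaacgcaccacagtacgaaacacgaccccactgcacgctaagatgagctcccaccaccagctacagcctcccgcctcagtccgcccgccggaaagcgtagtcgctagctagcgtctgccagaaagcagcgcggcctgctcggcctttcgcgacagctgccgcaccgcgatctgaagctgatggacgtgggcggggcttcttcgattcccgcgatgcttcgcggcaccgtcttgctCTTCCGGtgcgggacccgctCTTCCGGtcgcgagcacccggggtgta
Cox6a2: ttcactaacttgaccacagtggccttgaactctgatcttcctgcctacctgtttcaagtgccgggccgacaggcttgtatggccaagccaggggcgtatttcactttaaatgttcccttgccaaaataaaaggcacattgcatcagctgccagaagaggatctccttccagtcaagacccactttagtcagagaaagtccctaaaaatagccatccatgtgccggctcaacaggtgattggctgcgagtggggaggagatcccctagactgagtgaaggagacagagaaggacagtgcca
Cox7a1: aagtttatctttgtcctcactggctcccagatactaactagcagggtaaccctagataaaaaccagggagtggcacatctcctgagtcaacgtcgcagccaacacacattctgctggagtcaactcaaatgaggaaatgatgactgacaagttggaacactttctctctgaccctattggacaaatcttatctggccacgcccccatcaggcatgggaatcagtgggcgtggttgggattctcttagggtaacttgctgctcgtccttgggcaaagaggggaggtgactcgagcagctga

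The region labels were checked against marker genes. In the locus coeruleus the noradrenaline neuron markers Dbh (log2 change 4.21 against the mean of the other 6 regions), Th (2.82), Phox2a (1.42) and Slc6a2 (0.53) were all higher. In the dorsal raphe the serotonin neuron markers Slc6a4 (5.68) and Fev (2.49) were higher. The locus coeruleus arrays also carried those serotonin markers above the other regions (Slc6a4 4.46, Fev 1.31). The deposited values were in 2 scaling states. A trimmed mean of 150.04 was shared by 45 arrays, including all of frontal cortex, septum and amygdala, none of hypothalamus and hippocampus, 2 of 12 of dorsal raphe and 7 of 12 of locus coeruleus (0 of 4 ADX, 3 of 4 pADX and 4 of 4 Sham). Other arrays ranged from 34.1 to 171. All values below are therefore log2 intensities after quantile normalization across arrays with a floor of 16 (log2 4), and results that change without that step are given beside it.

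The genes gave strong signals. The mean signal over the 80 arrays lay above the 90th percentile of all probe sets for 69 of the 86 members. That held for 16 of 16 ATP synthase genes and 33 of 36 complex I genes, but for 9 of 17 complex IV genes and 0 of 6 assembly factors. The median spread between arrays of a group was an SD of 0.119 log2 units for the members, against 0.206 for all probe sets. Among probe sets with a mean over 8 log2 the gap was smaller, with 0.114 for the members and 0.140 for all of them. A mean log2 signal under 6 was found for 9 members. Among them were the tissue forms of complex IV subunits, with Cox4i2, the lung form, at the floor on 59 of 80 arrays, Cox7b2 on 66, Cox8b on 56 and Cox6a2 on 45. Probe sets differ in how they bind, so signals of different genes are not amounts that can be ranked.

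The clearest pattern was regional. After quantile normalization, locus coeruleus tissue gave a higher respiratory chain signal than the other regions, in small steps spread over nearly the whole set. On the values as deposited the member median was higher in frontal cortex (0.352) than in locus coeruleus (0.318), so the order of these regions is not settled. The normalized mean log2 signal over the 86 genes was 9.735 ± 0.087 in the locus coeruleus and 9.642 ± 0.099 in the dorsal raphe (SD, n = 12 arrays each). It was 9.554 ± 0.038 in hypothalamus and 9.548 ± 0.074 in frontal cortex. Hippocampus (9.505 ± 0.052), amygdala (9.502 ± 0.072) and septum (9.489 ± 0.065) followed, close enough together that their order is within the spread between arrays. The locus coeruleus arrays lay between 9.530 and 9.885, the lowest being ADX PM replicate 2.

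**Figure D1:**
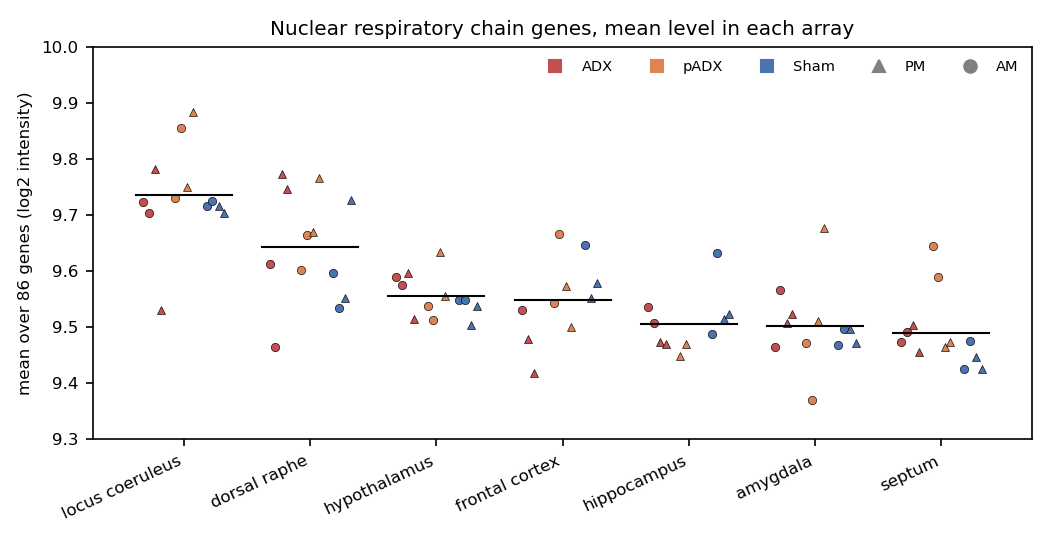
Mean log2 intensity over the 86 respiratory chain genes (vertical axis) for each of the 80 arrays by region, with ADX in red, pADX in orange and Sham in blue, triangles for PM and circles for AM, and a line at the region mean. Locus coeruleus has the highest mean (9.735) and septum the lowest (9.489), and the ADX, pADX and Sham arrays of a region overlap except in frontal cortex, where ADX lies below Sham, in locus coeruleus, where pADX lies above Sham, and in hippocampus, where the 2 pADX arrays lie below Sham.

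Region differences passed limma's moderated F test for 81 of the 86 genes, or 94.2%, where 65.3% of all probe sets passed. The members that did not pass were Cox4i2, Cox6c-ps1, Cox7b2, Ndufaf1 and Ndufs4. Set against the mean of the other 6 regions, 63 members were higher and 3 lower in the locus coeruleus, against 21.8% of all probe sets called higher and 18.6% called lower. The median change was 0.198 log2 units and 79 changes were positive. Signals this strong are called more often, so the same shares were taken among the 4774 probe sets with a mean over 8 log2. There 57 of 71 members (80.3%) were higher in the locus coeruleus and 2.82% lower, where 39.6% and 31.7% of all these probe sets were called. Its mean was the highest of the 7 regions for 51 of the 86 genes. On the values as deposited 61 were higher and 1 lower, against 19.9% and 10.3% of all probe sets. Frontal cortex then had 73 higher and 0 lower, against 35.8% and 6.73%. The deposited member median was 0.352 in frontal cortex (0.103 for all probe sets) and 0.318 in locus coeruleus (0.015 for all probe sets). The rank of locus coeruleus above frontal cortex thus rests on normalization. In bulk tissue, fewer cells of a type and less RNA per cell cannot be told apart.

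Complex I was raised most evenly in the locus coeruleus, where 32 of its 36 genes were higher and 0 lower. Ndufs1, the large iron-sulfur subunit through which electrons pass on their way from NADH, ran from 9.95 through a median of 10.05 to 10.10 in the locus coeruleus. In the dorsal raphe it ran from 9.86 through 9.96 to 10.04, and in the 56 arrays of the other 5 regions from 9.32 to 9.87. Every locus coeruleus array was thus above every array of those 5 regions, and its range overlapped that of the dorsal raphe. The share of all probe sets separated in this way was not counted. The log2 change was 0.40 (SE 0.03, limma adjusted p = 1.22e-21), a 1.32-fold difference. Ndufs7, an iron-sulfur subunit near the quinone site, was higher by 0.40 (adjusted p = 2.2e-08) and Ndufab1, the mitochondrial acyl carrier protein, by 0.40 (adjusted p = 3e-10). Among accessory subunits Ndufb8 was higher by 0.49 (SE 0.07, adjusted p = 3.33e-09), Ndufa3 by 0.47 (SE 0.06) and Ndufb7 by 0.44 (SE 0.05). The assembly factor Ndufaf5 was higher by 0.41, while Ndufaf4 was lower (-0.12, adjusted p = 0.0424). The Ndufaf4 call was lost without ADX AM replicate 2, ADX PM replicate 2, pADX AM replicate 1 or 2, pADX PM replicate 2 or Sham PM replicate 1. Ndufa4l2, a paralogue of Ndufa4 known to be induced by low oxygen, was higher by 0.61 (SE 0.14, adjusted p = 0.000159) but spread widely within the locus coeruleus, from 5.41 through 5.86 to 6.63.

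In complex II, Sdhb, the iron-sulfur subunit, was higher in the locus coeruleus by 0.33 and Sdhc, a membrane anchor, by 0.28. Sdha, the flavoprotein that oxidises succinate, was higher by 0.13 (adjusted p = 0.000131). Its lowest, median and highest values were 10.42, 10.57 and 10.64 in the locus coeruleus, 10.44, 10.62 and 10.71 in the dorsal raphe, and 10.11, 10.25 and 10.38 in the amygdala. The first 2 ranges overlap almost fully, and both lie above that of the amygdala.

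Complex III held members that ran in opposite directions. Uqcrc1, a core subunit, had a lowest, median and highest value of 10.52, 10.65 and 10.74 in the locus coeruleus. These were 10.04, 10.50 and 10.75 in the dorsal raphe, 10.17, 10.22 and 10.58 in frontal cortex, 9.86, 9.99 and 10.15 in hippocampus and 9.71, 9.996 and 10.16 in septum. Of the 56 arrays outside the locus coeruleus and dorsal raphe, 1 reached into the locus coeruleus range. The change was 0.47 (SE 0.04, adjusted p = 4.79e-14), or 1.38-fold. Uqcr11, a small accessory subunit of the same complex, ran the other way, with a change of -0.38 (SE 0.04, adjusted p = 5.88e-13). All 36 arrays of locus coeruleus, dorsal raphe and hypothalamus (10.11 to 10.85) lay below all 32 arrays of frontal cortex, amygdala and hippocampus (10.87 to 11.42). The sides of this split were formed from the Uqcr11 levels themselves, with the 12 septum arrays left out, so it is a description and no test. The share of all probe sets split this way was not counted. Set against all other regions, the locus coeruleus arrays lay wholly above or below for 0 members, against 0.0322% and 0.00644% of all probe sets.

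**Figure D2:**
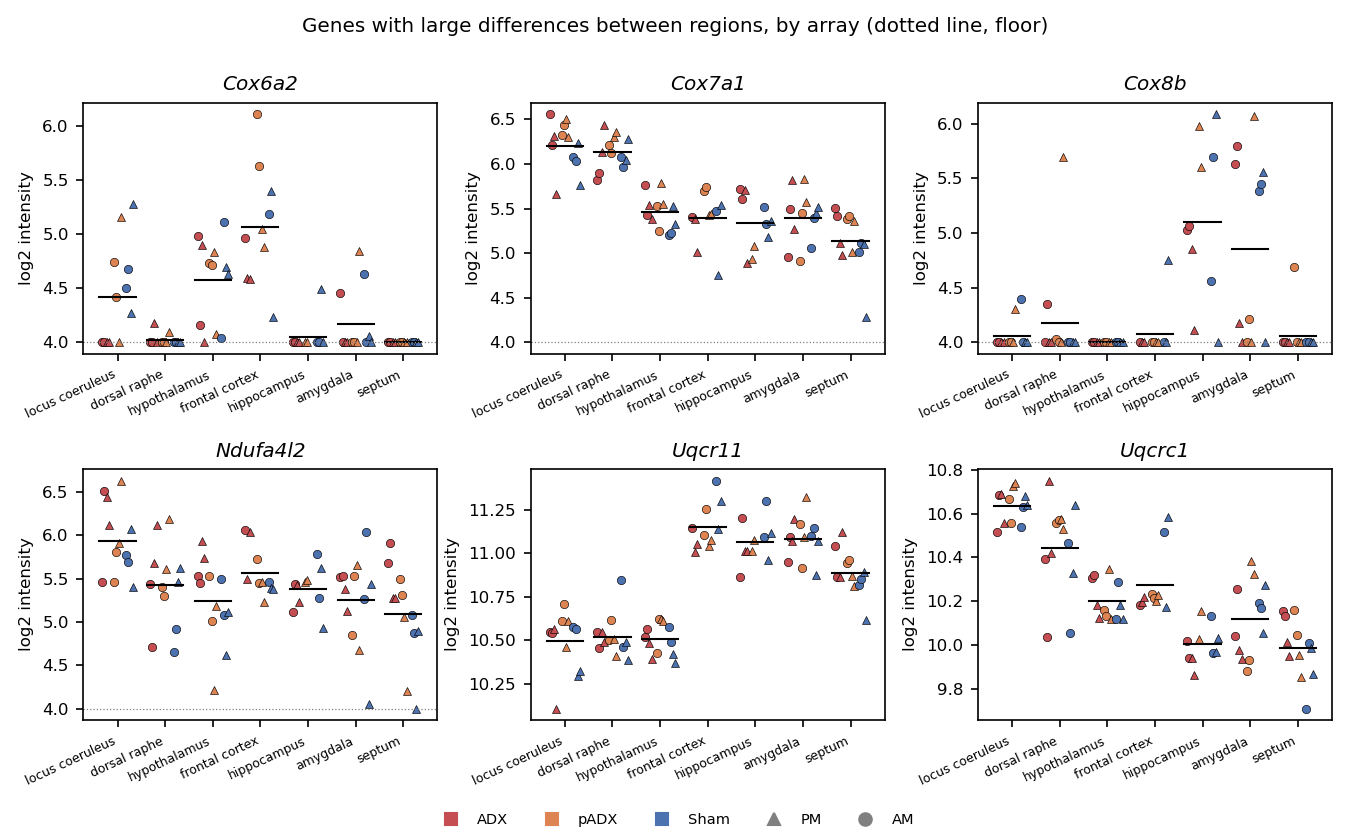
Log2 intensity of Cox6a2, Cox7a1, Cox8b, Ndufa4l2, Uqcr11 and Uqcrc1 (vertical axes) by region, 1 point per array. ADX is in red, pADX in orange and Sham in blue, with a line at each region mean. Uqcrc1 runs from 10.52 to 10.74 in locus coeruleus, a range reached by 1 of the 56 arrays outside the locus coeruleus and dorsal raphe. Uqcr11 is low in locus coeruleus, dorsal raphe and hypothalamus.

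Complex IV and ATP synthase moved less. In complex IV, 8 of 17 genes were higher and 1 lower in the locus coeruleus, and in ATP synthase 12 of 16 were higher and 0 lower. Cox4i1, the common form of the largest nuclear subunit, was higher by 0.12 (adjusted p = 0.000154). The F1 subunits of ATP synthase, Atp5f1a (0.14, adjusted p = 9.98e-06) and Atp5f1b (0.10, adjusted p = 0.000415), were higher by similar amounts. Atp5mc3, which encodes the c subunit of the membrane ring, was higher by 0.29 (SE 0.02, adjusted p = 1.14e-16). Its 24 arrays from locus coeruleus and dorsal raphe (11.76 to 12.03) shared their range with 3 of the 56 others. The largest change of a member in the locus coeruleus was that of Cox7a1, the form of subunit VIIa known from heart and skeletal muscle, at 0.72 (SE 0.08, adjusted p = 2.61e-11), or 1.65-fold. Cox7a1 had a lowest, median and highest value of 5.66, 6.27 and 6.56 in the locus coeruleus and 5.81, 6.13 and 6.44 in the dorsal raphe, against 4.28, 5.11 and 5.50 in the septum. Of the 56 arrays outside these brainstem regions, 8 reached into their joint range. Cox6b2, known from testis, was lower (-0.26, adjusted p = 0.0115), with 5 of 12 locus coeruleus arrays at the floor, and did not pass with a floor of 32 or as deposited.

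The dorsal raphe shared much of this profile at a smaller size. In this region 44 members were higher and 7 lower, against 20.6% and 17.6% of all probe sets, with a median change of 0.102. Without normalization the counts were 1 higher and 11 lower (6.58% and 23.7% of all probe sets), so the direction of most of these changes rests on the normalization. Among probe sets over 8 log2, 52.1% of members were higher and 8.45% lower, against 36.9% and 30% of all of them. The 4 complex II genes were all higher, among them Sdhb (0.32, adjusted p = 1.23e-11) and Sdha (0.20, adjusted p = 2.64e-08), as were 11 of 16 ATP synthase genes and 19 of 36 complex I genes. Cox7a1 was higher by 0.65 (SE 0.08, adjusted p = 9.04e-10), Cox5a by 0.39 (adjusted p = 1.36e-06), Ndufs1 by 0.29 (adjusted p = 8.82e-16) and Uqcrc1 by 0.24 (adjusted p = 6.39e-06). The assembly factor Ndufaf7 (0.33) and the accessory subunit Ndufa5 (0.32) were higher too. Cox4i1 (0.11) and Atp5f1a (0.09) were higher after normalization and lower without it (-0.07 and -0.09). As deposited, Ndufs1 (0.13), Uqcrc1 (0.08), Sdha (0.03), Sdhb (0.15), Cox5a (0.20), Ndufaf7 (0.15) and Ndufa5 (0.14) stayed positive and did not pass. Lower members included Cox6a2 (-0.36, adjusted p = 0.00311), with 10 of 12 arrays at the floor, Uqcr11 (-0.35), Ndufv3 (-0.32) and Ndufv1, which binds NADH (-0.10, adjusted p = 0.0191). The Ndufv1 call was lost without ADX AM replicate 1 or 2, Sham AM replicate 2 or Sham PM replicate 1, and under trimmed mean scaling. Ndufv3 has another probe set that did not pass (0.03, adjusted p = 0.892).

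Markers of cell types also differed in the locus coeruleus and dorsal raphe. All 9 measured oligodendrocyte markers were higher in both regions, with medians of 0.86 in locus coeruleus and 0.82 in dorsal raphe. Their mean level was 10.47 to 10.77 in locus coeruleus and 10.30 to 10.81 in dorsal raphe, against 10.08 to 10.39 in septum. Of 10 neuron markers 6 were higher and 2 lower in each region, with Nefm, a neurofilament gene of large projection neurons, higher by 1.80 and 2.11 and the synaptic vesicle gene Syt1 at -1.17 and -1.28. The mean level of the 4 noradrenaline markers varied from 5.604 to 7.884 among the locus coeruleus arrays, against 4.99 to 5.53 in dorsal raphe, and that of the 2 serotonin markers ran from 6.55 to 8.53 in locus coeruleus and 8.22 to 9.27 in dorsal raphe. The ratio of 3′ to 5′ beta-actin signal, a sign of RNA quality, ran from 3.07 to 3.94 in locus coeruleus and from 3.12 to 6.03 in dorsal raphe, against 2.73 to 3.93 in frontal cortex, 2.56 to 4.11 in amygdala, 2.60 to 3.79 in septum, 2.64 to 3.11 in hypothalamus and 1.73 to 2.95 in hippocampus. The locus coeruleus range lay within that of the amygdala, while the dorsal raphe reached above every other region. The medians were 3.51 in locus coeruleus and 4.23 in dorsal raphe, against at most 3.07 in the other 5 regions. The 3′ to 5′ ratio of Gapdh ran from 1.14 to 1.32 in locus coeruleus and 1.04 to 1.40 in dorsal raphe, against 0.946 to 1.26 in the other 5. The part of these differences in the result was not tested. Scaling state also differed between regions. In the 7 locus coeruleus arrays at the common scale, set against 34 arrays of frontal cortex, septum and amygdala at that scale, 57 members were higher and 1 lower, against 20.5% and 16.7% of all probe sets. There Ndufs1 stood at 0.46 (adjusted p = 2.17e-12), Uqcrc1 at 0.52 (adjusted p = 1.07e-07), Cox7a1 at 0.92 (adjusted p = 1.13e-06) and Uqcr11 at -0.55 (adjusted p = 6.24e-09). Cox4i1 (0.10, adjusted p = 0.0676) and Ndufv1 (0.06, adjusted p = 0.4) did not pass.

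Other genes of mitochondrial energy supply were read in the same test, in which 21.8% of all probe sets were higher in locus coeruleus and 20.6% in dorsal raphe (39.6% and 36.9% of those over 8 log2). Of 14 citrate cycle and pyruvate dehydrogenase genes, 11 were higher and 0 lower in locus coeruleus and 9 higher and 0 lower in dorsal raphe. They included the isocitrate dehydrogenase subunits Idh3a (0.45 in locus coeruleus, 0.46 in dorsal raphe) and Idh3b (0.33 and 0.28). Of 19 genes of cytochrome c and of complex assembly, 11 were higher and 1 lower in locus coeruleus and 5 higher and 2 lower in dorsal raphe, with the complex III assembly factor Uqcc1 at 0.51 and 0.31. Of 16 biogenesis genes, 5 were higher and 1 lower in each, including the nuclear receptor Esrra (0.49 and 0.34) and the coactivator Ppargc1a (0.20 and 0.18), and Yy1 was the lower one (-0.29 and -0.20). The biogenesis counts in both regions and the assembly count in dorsal raphe are near these background shares. Of 12 carriers and channels, 6 were higher in each and 0 lower in locus coeruleus, 1 in dorsal raphe, with the citrate carrier Slc25a1 at 1.06 and 0.74. The carrier counts of higher genes are above the shares of all probe sets but near those over 8 log2. Glycolysis was mixed and also near the background, with 7 of 15 genes higher and 1 lower in locus coeruleus and 6 higher and 5 lower in dorsal raphe. Ldhb, the lactate dehydrogenase subunit of oxidative tissue, was higher (0.38 and 0.29), and Ldha, the subunit of glycolytic tissue, was lower (-0.49 and -0.67).

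**Figure D3:**
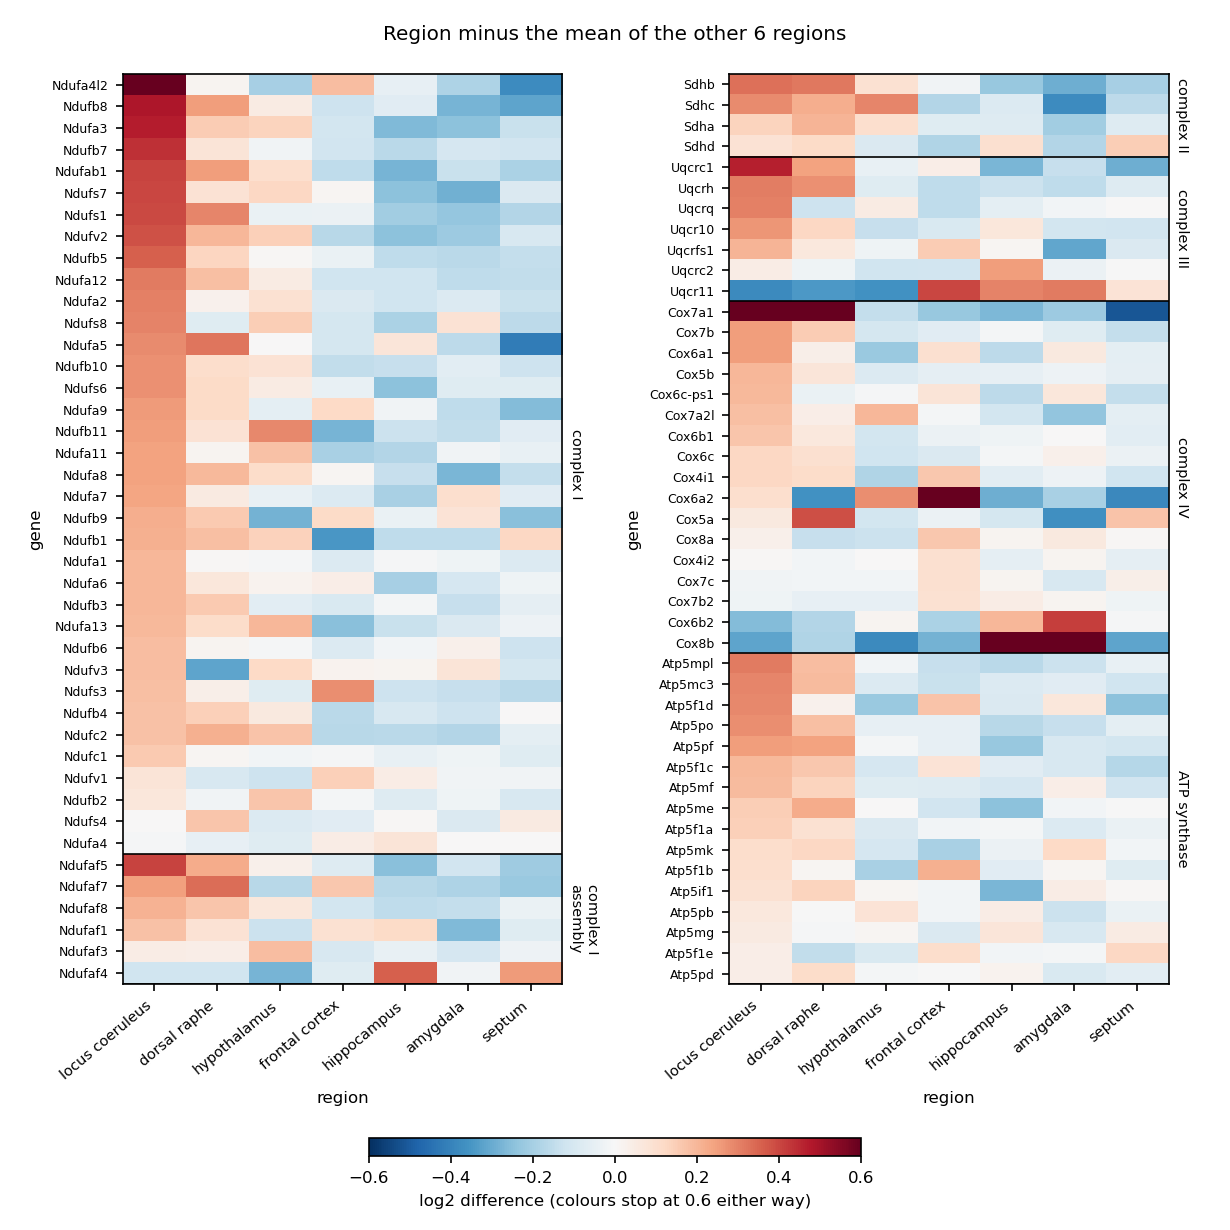
Log2 change of each respiratory chain gene (rows, grouped by complex) in each region against the mean of the other 6 regions (columns), from blue (lower) to red (higher). The locus coeruleus column is red for most rows of complex I, where 32 of 36 genes were higher, while the septum, amygdala and hippocampus columns are mostly blue.

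The calls were also counted by promoter motif. In the locus coeruleus 14 of the 15 genes with an NRF1 match were higher and 1 lower. Of the 22 with an ETS match 17 were higher and 0 lower, and of the 42 with neither motif 29 were higher and 1 lower. In the dorsal raphe 12 of 15 with an NRF1 match, 11 of 22 with an ETS match and 18 of 42 with neither were higher. These shares were not tested against each other, and genes without either motif in this window made up a large part of the higher set.

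Septum, amygdala and hippocampus stood at the low end. In the amygdala 5 members were higher and 44 lower (15.8% and 17.8% of all probe sets), in the hippocampus 5 and 37 (16.7% and 17.9%), and in the septum 4 and 33 (15.4% and 16%). In amygdala and septum the direction rests on normalization. Without it 58 members were higher and 0 lower in amygdala (44.4% and 3.13% of all probe sets) and 52 and 1 in septum (55.2% and 1.68%). In hippocampus most calls stayed lower without it, with 1 higher and 81 lower (2.05% and 57.8%). The hippocampal member median was then -0.663, against -0.372 for all probe sets. In the amygdala the complex II genes Sdhc (-0.38, adjusted p = 1.37e-14), Sdhb (-0.29) and Sdha (-0.21) were lower, with the iron-sulfur subunit of complex III, Uqcrfs1 (-0.31), and Cox5a (-0.37). In the septum Cox7a1 (-0.51, adjusted p = 6.79e-07), Ndufa5 (-0.42, adjusted p = 1.05e-13), Ndufb8 (-0.31) and Uqcrc1 (-0.29, adjusted p = 2.04e-07) were lower, and Ndufaf4 (0.25) higher. In the hippocampus Uqcrc1 (-0.28), Ndufab1 (-0.28) and Atp5if1, the inhibitor of ATP synthase (-0.27, adjusted p = 2.88e-10), were lower, and the assembly factor Ndufaf4 (0.36), Uqcr11 (0.30) and the core subunit Uqcrc2 (0.25) higher. Of these, Ndufb8 and Uqcrc1 in septum, Sdha, Sdhb and Uqcrfs1 in amygdala and Ndufaf4, Uqcr11 and Uqcrc2 in hippocampus changed sign on the values as deposited. Sdhc (-0.0046) and Cox5a (-0.01) in amygdala and Cox7a1 (-0.09) and Ndufa5 (-0.05) in septum kept their sign there but no longer passed (adjusted p from 0.558 to 1).

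Frontal cortex and hypothalamus each had 16 members higher and 21 lower, in frontal cortex against 20.9% and 21.3% of all probe sets and in hypothalamus against 19.4% and 16.2%. As deposited, 73 were higher and 0 lower in frontal cortex (35.8% and 6.73% of all probe sets), and 0 and 80 in hypothalamus (2.97% and 45.1%). In frontal cortex Atp5f1b (0.21, adjusted p = 3.5e-10), Ndufs3, a core subunit of complex I (0.28, adjusted p = 9.18e-07), Cox4i1 (0.16) and Ndufv1 (0.14) were higher, while Ndufb1 (-0.35), Ndufb11 (-0.28) and Ndufa13 (-0.25) were lower after normalization and positive without it. The hypothalamus reversed several of these, with Atp5f1b (-0.19), Cox4i1 (-0.18) and Ndufv1 (-0.12) lower and Ndufb11 (0.29) and Sdhc (0.29, adjusted p = 1.16e-10) higher, the last 2 negative without normalization.

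The forms of complex IV subunits known from muscle had regional patterns of their own. Cox6a2 had a lowest, median and highest value of 4.23, 5.01 and 6.11 in frontal cortex, with no array at the floor, and of 4, 4.70 and 5.11 in hypothalamus. In septum 12 of 12 arrays were at the floor, in hippocampus 9 of 10 and in dorsal raphe 10 of 12. Its change in frontal cortex was 0.86 (SE 0.11, adjusted p = 1.76e-09), and 0.23 with a floor of 32, so its size depends on the floor. Cox8b ran from the floor through 5.05 to 6.09 in hippocampus (0.87, SE 0.16, adjusted p = 4.67e-06, and 0.27 with a floor of 32) and from the floor through 4.80 to 6.07 in amygdala (0.62), and 12 of 12 hypothalamus and 11 of 12 septum arrays were at the floor. Both genes spread over more than 1 log2 unit within the region where they were highest. The ranges of the 7 region means were widest for Cox8b (1.10), Cox6a2 (1.06), Cox7a1 (1.06), Ndufa4l2 (0.85) and Ndufb8 (0.69). Apart from the genes near the floor, Cox4i2 and Cox7b2, they were narrowest for Ndufa4 (0.13), Atp5mg (0.14) and Cox7c (0.17). No member's mean in a region stood 0.5 log2 units or more from that of every other region.

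The ADX groups were set against Sham to see whether the operation changed these genes. No member passed in ADX vs Sham across the 5 regions with all 12 arrays (0 of 86, where 0.132% of all probe sets were called in either direction), nor in pADX vs Sham (0 of 86, 0.00644%) or ADX vs pADX (0 of 86, 0.0483%). An unadjusted limma p under 0.05 was found for 5 members in ADX vs Sham (5.81%, against 9.02% of all probe sets), 27 in pADX vs Sham (31.4%, against 7.7%) and 14 in ADX vs pADX (16.3%, against 8.02%). The limma fits used 12 units, each the mean of the 5 regions for a treatment, time and replicate. The mean over the 86 genes was 9.580 ± 0.036 in ADX and 9.618 ± 0.035 in pADX, against 9.555 ± 0.0126 in Sham (SD, n = 4 units each). For ADX vs Sham the changes ran from -0.161 to 0.464, with a median of 0.022, and 79 of 86 had a 95% confidence interval within 0.25 log2 units of 0. Without normalization 78 members were called lower, with a median change of -0.271, where 44% of all probe sets were called lower and their median was -0.210. In ADX vs pADX 55 were then called lower, against 11.5% of all probe sets. The deposited signals of all probe sets were lower in ADX, and those of the members lower still. The member median minus that of all probe sets was -0.061 in ADX vs Sham and -0.086 in ADX vs pADX. The part of scaling in these deposited calls was not tested.

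After normalization, catalytic and marker subunits were close to level between ADX and Sham. Ndufs1 had 9.75, 9.76, 9.76 and 9.75 in ADX units and 9.73, 9.76, 9.76 and 9.70 in Sham units, a change of 0.02 (adjusted p = 0.842). Sdha had 10.48, 10.49, 10.46 and 10.48 in ADX units and 10.50, 10.44, 10.43 and 10.42 in Sham units (0.03, adjusted p = 0.671). The groups overlap in both genes. Ndufv1 (0.05), Uqcrc1 (0.03), Cox4i1 (0.01), Atp5f1a (0.01) and Atp5f1b (0.03) had adjusted p-values from 0.723 to 1. These 7 changes were all negative on the values as deposited and passed the threshold there. The deposited median change was -0.271 over the 86 members and -0.210 over all probe sets.

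The largest change in ADX was that of Ndufa4l2. It had 5.52, 5.62, 5.74 and 5.67 in ADX units and 5.34, 5.39, 5.29 and 5.38 in pADX units, against 5.25, 5.32, 4.84 and 5.29 in Sham units. Every ADX unit was above every pADX and Sham unit, and the lowest value was Sham PM replicate 1. The gene was picked for its large change, and the share of all probe sets separated in this way was not counted. The change was 0.46 in ADX vs Sham (SE 0.10, 95% interval 0.23 to 0.70) with an adjusted p of 0.195, and 0.29 in ADX vs pADX (adjusted p = 0.521), so it did not pass over all probe sets. Cox7a1 (0.15, adjusted p = 0.603) and Atp5me (0.10, adjusted p = 0.596) followed, both negative as deposited (-0.11 and -0.19). At the other end were Cox6a2 (-0.16, adjusted p = 0.621), Cox6b2 (-0.11) and Cox6c-ps1 (-0.07).

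Across the 5 regions the changes in pADX against Sham were small and mostly positive. They were positive for 80 of 86 members (93%), against 45.8% of all probe sets, with a median of 0.059, and an unadjusted limma p under 0.05 was found for 31.4% of them, against 7.7%. As deposited the median was -0.0561, where that of all probe sets was -0.0658, so neither the direction nor most of the excess held without normalization. The regions outside this fit went the other way, with 29 of 86 positive in frontal cortex (median -0.076) and 28 in hippocampus (median -0.068, 2 pADX arrays). Among probe sets over 8 log2, 68 of 71 members (95.8%) were positive, against 49.9%. Across the 5 regions all 36 complex I genes, 4 of 4 complex II, 6 of 7 complex III, 15 of 17 complex IV, 14 of 16 ATP synthase genes and 5 of 6 assembly factors had positive changes. The members share arrays and scaling, so these counts are a description, and the smallest adjusted p was 0.342, that of Cox6b1, which links the complex IV dimer. Cox6b1 had 11.14, 11.12, 11.16 and 11.16 in pADX units against 11.03, 11.09, 10.996 and 11.05 in Sham units, with no overlap. It was picked for its small p-value, and the share of all probe sets without overlap was not counted. Cox7a1 had 5.67, 5.73, 5.89 and 5.83 in pADX units against 5.49, 5.55, 5.67 and 5.43 in Sham units, the groups meeting at 5.67 (0.25, SE 0.07, adjusted p = 0.49). Ndufb7 stood at 0.17 (adjusted p = 0.465) and Uqcrfs1, at the low end, at -0.08 (adjusted p = 0.813). Between the operated groups, 17 of 86 changes of ADX vs pADX were positive, with a median of -0.034. Both comparisons with Sham use the same Sham units, and both with pADX the same pADX units.

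The same ADX vs Sham fit did call genes outside the set. Of 10 known glucocorticoid-induced genes, 4 were lower (Sult1a1, Mt2A, Glul and Ndrg2). Of the related energy lists, 1 gene was called, the glycolytic aldolase gene Aldoc (-0.32, adjusted p = 0.0304).

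Time of day was compared as PM against AM. Across the 5 regions 0 of 86 members passed (0.00966% of all probe sets were called). The median change was 0.027, with 65 positive changes (75.6%, against 46.5% of all probe sets) and 83 of 86 intervals within 0.25 log2 units of 0. In limma 12 members had an unadjusted p under 0.05 (14%, against 10.4% of all probe sets). Among probe sets over 8 log2, 15.5% of members had an unadjusted p under 0.05, against 17.7% of all of them. The set averaged 9.596 ± 0.049 at PM and 9.572 ± 0.021 at AM (SD, n = 6 units each). Ndufa12, an accessory subunit of complex I, had the smallest adjusted p. In ADX, pADX and Sham units, in that order and 2 of each, it had 10.59, 10.47, 10.46, 10.60, 10.50 and 10.49 at PM, against 10.43, 10.35, 10.32, 10.43, 10.24 and 10.34 at AM. All PM units were above all AM units, a separation whose share among all probe sets was not counted (0.17, SE 0.04, 95% interval 0.09 to 0.25, limma adjusted p = 0.187). Ndufaf1 (0.12) and Cox5a (0.10) were next, and Cox6b2 (-0.14), Cox8b (-0.07) and Uqcr11 (-0.07) were at the other end. Within single treatments 0 of 86 passed in ADX (0.029% of all probe sets), pADX (0.00966%) or Sham (0.0773%). Unadjusted p-values under 0.05 in limma numbered 8 in ADX (9.3%, against 10.5% of all probe sets), 5 in pADX (5.81%, against 6.29%) and 4 in Sham (4.65%, against 9.3%). The largest changes were those of Ndufaf1 (0.36, adjusted p = 0.425) and Cox8b (-0.36) in ADX, Cox8b (0.31) in pADX and Ndufa12 (0.20) and Uqcr11 (-0.17, adjusted p = 0.228) in Sham. The difference between the PM vs AM changes of ADX and Sham passed for 0 of 86 (0.0354%), with 4 unadjusted p-values under 0.05 in limma (4.65%, against 6.76% of all probe sets). It was 0.35 for Ndufa4l2, and its interval lay within 0.25 log2 units of 0 for 51 members.

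Single regions were fitted alone in 28 comparisons of treatment and time, and 0 of 86 members passed in any of them. Of all probe sets, ADX vs Sham called 0.0226% in septum, 0.0161% in frontal cortex and in hypothalamus, 0.0129% in amygdala, 0.00644% in dorsal raphe, 0.00322% in hippocampus and 0% in locus coeruleus. The call share was 0.0193% in hippocampus, 0.00322% in dorsal raphe and 0% elsewhere in pADX vs Sham, and 0.00966% in dorsal raphe, 0.00322% in hypothalamus and 0% elsewhere in PM vs AM. For ADX vs pADX it was 0.029% in hippocampus, 0.00966% in septum, hypothalamus and amygdala, 0.00644% in frontal cortex and 0.00322% in dorsal raphe and locus coeruleus. In limma, between 2 and 28 members (2.33% to 32.6%) had an unadjusted p under 0.05, where the share of all probe sets ran from 3.9% to 12.3%. The smallest adjusted p was that of Ndufb11, an accessory subunit of complex I, in frontal cortex ADX vs Sham. It had 9.59, 9.19 and 9.26 on the ADX arrays and 9.71, 9.85, 9.58 and 9.39 on the pADX arrays, against 10.12, 9.75 and 9.73 on the Sham arrays. All 3 ADX arrays were below all 3 Sham arrays, a separation whose share among all probe sets was not counted (-0.52, SE 0.06, limma adjusted p = 0.104). In that region 68 of 86 changes were negative, with a median of -0.15, and the set averaged 9.475 ± 0.056 in ADX (n = 3) and 9.592 ± 0.048 in Sham (n = 3), again with no overlap. Without frontal cortex Sham PM replicate 1, 4 members passed in ADX vs Sham and 2 in pADX vs Sham there. The share of all probe sets called in that reduced fit was not counted, so whether the members stood out is not known. In the dorsal raphe, 71 of 86 PM vs AM changes were positive, with a median of 0.116, 28 of them (32.6%) had an unadjusted p under 0.05, against 11.9% of all probe sets, and the largest was Ndufa4l2 (0.71, SE 0.16, adjusted p = 0.24). In the locus coeruleus 77 changes were positive in pADX vs Sham (median 0.083) and the set averaged 9.805 ± 0.076 in pADX and 9.715 ± 0.00838 in Sham (SD, n = 4 each), with no overlap, while 79 were negative in ADX vs pADX (median -0.118). There none of the 4 ADX and 3 of the 4 pADX arrays were at the common scale, and the part of scaling in this was not tested.

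An interaction term tested whether regions differed in their ADX change. It passed for 1 of 86 members, Atp5f1b, the catalytic beta subunit of ATP synthase (adjusted p = 0.0392), against 3.08% of all probe sets. Atp5f1b averaged 11.70 ± 0.13 in dorsal raphe ADX arrays and 11.54 ± 0.09 in Sham arrays (SD, n = 4 each). In frontal cortex it averaged 11.77 ± 0.07 in ADX and 11.89 ± 0.06 in Sham arrays (n = 3 each), and in locus coeruleus 11.67 ± 0.05 in ADX and 11.75 ± 0.05 in Sham arrays (n = 4 each). The fitted changes were 0.17 in dorsal raphe, 0.07 in hypothalamus, -0.12 in frontal cortex and -0.07 in locus coeruleus and hippocampus. The share of members called was below that of all probe sets, and the call was lost on leaving out ADX AM replicate 1 or 2, ADX PM replicate 1, pADX AM replicate 1, pADX PM replicate 1 or Sham AM replicate 1 or 2. Without Sham PM replicate 1, 4 members passed, and the share of all probe sets called in that reduced fit was not counted.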

How the data were processed

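The deposited table holds 1 positive linear intensity per probe set for each of 82 rat brain arrays. Neither the authors' scanner software nor their scaling is named in the labels or the table. All columns were mapped to samples (0 left unused), and 2 frontal cortex arrays without a treatment entered no comparison. Region came from titles and descriptions; source names disagree for septum, dorsal raphe, locus coeruleus and hypothalamus. A title letter b was read as replicate 2. The deposited intensities were quantile normalized, floored at 16 and put on the log2 scale, which left 27.5% of values at that floor. Without the 57 control probe sets, 31042 were tested in limma 3.58.1 under R 4.3.3 (lmFit, eBayes with a trend), with Benjamini-Hochberg adjustment over all of them and a threshold of 0.05. Treatment and time entered additively over 12 units, or as 6 means for comparisons within a treatment and the interaction. Regions were compared over 80 arrays with the 12 combinations of treatment, time and replicate as a fixed block. The code was tested on simulated data. Names and the 86 gene matches come from RefSeq (GRCr8).

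The members, lists and comparisons were chosen with earlier results of these data known. The text names, per comparison, up to 10 called members with the largest rise and fall (or 3 each where none passed), 7 marker subunits, 4 tissue forms and, for regions, the 5 widest and narrowest ranges; other members and the shares among probe sets over 8 log2 were chosen after their values were seen. Same-numbered replicates did not deviate together (15 correlations from -0.072 to 0.0562, none over 0.1), so the numbers were not used to pair units. The number of arrays limits the precision.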

Additional observations from a re-analysis of the deposited data

Results flagged for a closer look

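In 61 groups of 4 to 10 values examined for a value far from the others, 5 had one, and chance gives about 1 group in 20. Hippocampus Sham AM replicate 2 had a mean of 9.631 over the 86 genes, where the other hippocampal arrays lay between 9.447 and 9.535. The pADX PM replicate 2 unit had a mean of 9.671 over the 5 regions, against 9.598 to 9.606 in the other pADX units. For Sdha, Sham AM replicate 1 stood at 10.5 and the other Sham units between 10.42 and 10.44. For Ndufa4l2, Sham PM replicate 1 stood at 4.839 and the other Sham units between 5.252 and 5.32. For Cox4i2, pADX PM replicate 1 stood at 4.037, where the others were between the floor of 4 and 4.005. The ADX change of Atp5f1b differed between regions (interaction F test in limma, adjusted p = 0.0392).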

How the results depend on the processing

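Alternatives were the values as deposited, trimmed mean scaling, a floor of 32, dim probe sets left out, the mean of a gene's probe sets, fewer regions averaged, 6 treatment by time means, a replicate block, an additive block, hippocampal pADX left out, arrays at the common scale and each replicate left out; the locus coeruleus at the common scale was added after seeing the data. Depth in the sense of read counts does not apply, and 9 genes with a mean under 6 log2 are limited by signal near the floor. The count of members called across 5 regions was 0 in each alternative other than the values as deposited, where 78 were lower in ADX vs Sham and 55 in ADX vs pADX, and 91 calls were made over single-region ADX vs Sham fits. The share of all probe sets called in those deposited single-region fits was not counted. As deposited, the median of members minus that of all probe sets was -0.06088 in ADX vs Sham, 0.009642 in pADX vs Sham, -0.08644 in ADX vs pADX, -0.0264 for PM vs AM within ADX and -0.04291 for ADX by time of day. With the replicate block ADX vs Sham kept 0 calls. As deposited, members higher and lower were 73 and 0 in frontal cortex, 52 and 1 in septum, 0 and 80 in hypothalamus, 58 and 0 in amygdala, 1 and 81 in hippocampus and 1 and 11 in dorsal raphe, and 1 was lower in locus coeruleus, where 61 were higher. The deposited medians of all probe sets were -0.2102 in ADX vs Sham and -0.1185 in ADX vs pADX, 0.1029 in frontal cortex, 0.2553 in septum, -0.2145 in hypothalamus, 0.1936 in amygdala and -0.3722 in hippocampus. Trimmed mean scaling gave 9 lower in frontal cortex and 2 higher in septum, 7 in hypothalamus and 3 in amygdala. Without dim probe sets the ADX by region interaction called 2 members and amygdala had 3 higher, and with an additive block the interaction called 0. At the common scale 1 was higher in septum, 3 in amygdala and 8 in dorsal raphe, with 1 lower in dorsal raphe (2 arrays) and 1 lower in locus coeruleus.

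Leaving out each replicate in turn gave 0 calls in each comparison across 5 regions, 0 to 4 for single-region ADX vs Sham, 0 to 2 for pADX vs Sham and 0 for PM vs AM. It gave 0 to 4 for the interaction and 78 to 81 in the F test. The shares of all probe sets called in these reduced fits were not counted. Members higher and then lower ran from 62 to 67 and 2 to 3 in locus coeruleus, 40 to 46 and 5 to 7 in dorsal raphe, 13 to 17 and 14 to 26 in frontal cortex, 12 to 18 and 18 to 23 in hypothalamus, 4 to 7 and 31 to 38 in hippocampus, 4 to 6 and 30 to 46 in amygdala and 2 (without pADX AM replicate 2) to 4 and 29 to 38 in septum. The median difference from all probe sets ran from 0.01231 to 0.03002 in ADX vs Sham, 0.0451 to 0.06607 in pADX vs Sham, -0.04913 to -0.0241 in ADX vs pADX and 0.01653 to 0.03787 in PM vs AM. Within treatments it ran from -0.01482 to 0.06311 in ADX, 0.02045 to 0.06147 in pADX and -0.01241 to 0.01369 in Sham, and from -0.01466 to 0.06324 for ADX by time of day.

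Among named genes past the threshold in the reported or the alternative setting, 69 values changed sign, 66 of them on the values as deposited, where the scale itself shifts all genes. In ADX vs Sham these were Atp5me (-0.1907), Ndufs1 (-0.2802), Ndufv1 (-0.2496), Sdha (-0.2655), Uqcrc1 (-0.2683), Cox4i1 (-0.3084), Atp5f1a (-0.2979) and Atp5f1b (-0.286). In ADX vs pADX it was Ndufs1 (-0.1555). In frontal cortex they were Ndufb1 (0.08193), Ndufb11 (0.1574), Ndufa13 (0.1877), Ndufa11 (0.2299), Atp5mk (0.2147), Sdhd (0.25), Sdhc (0.2543), Ndufv2 (0.2769), Ndufc2 (0.2806), Ndufs1 (0.3982), Sdha (0.3739) and Atp5f1a (0.4355). In septum they were Ndufa4l2 (0.02983), Ndufb8 (0.07777), Uqcrc1 (0.02194), Ndufa9 (0.06185), Ndufb9 (0.08371), Atp5f1d (0.06719), Ndufaf7 (0.164), Ndufs1 (0.1447), Ndufv1 (0.2898), Sdha (0.2379), Cox4i1 (0.246), Atp5f1a (0.2841) and Atp5f1b (0.2813). In hypothalamus they were Sdhc (-0.1975), Ndufb11 (-0.1929), Cox7a2l (-0.2903), Ndufa13 (-0.293), Ndufaf3 (-0.2613), Ndufa11 (-0.2904), Ndufc2 (-0.2817), Ndufb2 (-0.3269), Ndufs8 (-0.3098) and Sdha (-0.3877). In amygdala they were Uqcrfs1 (0.05947), Sdhb (0.0764), Ndufs7 (0.0795), Ndufb8 (0.08629), Ndufa8 (0.06374), Ndufaf1 (0.02534), Ndufa3 (0.1266), Cox7a2l (0.1243), Ndufs1 (0.1351), Ndufv1 (0.3534), Sdha (0.1539), Uqcrc1 (0.2305), Cox4i1 (0.2168), Atp5f1a (0.2414) and Cox7a1 (0.093). In hippocampus they were Ndufaf4 (-0.2266), Uqcr11 (-0.2955), Uqcrc2 (-0.344), Ndufa4 (-0.5227) and Ndufv1 (-0.5461). In dorsal raphe they were Cox4i1 (-0.07054) and Atp5f1a (-0.08537). Elsewhere Cox6a2 in hypothalamus stood at -0.03958 with a floor of 32, and at the common scale Ndufb9 in amygdala stood at -0.005594 and Ndufaf4 in dorsal raphe at 0.0554; the cause was not tested. Sign changes of values that passed the threshold in neither setting are not in that count; as deposited they include Cox7a1 in ADX vs Sham (-0.1101) and Ndufv1 (-0.05878), Uqcrc1 (-0.05783), Sdha (-0.1114), Cox4i1 (-0.12), Atp5f1a (-0.1159) and Ndufs1 (-0.1247) in pADX vs Sham.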
